A study of Mus musculus with 12 samples.

Results

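The smooth muscle nuclei of 12 mouse lungs are described here, as sampled by single-nucleus RNA sequencing, in which each nucleus carries a barcode and each captured RNA molecule a unique molecular identifier (UMI). They number 235 of the 47319 nuclei that passed the filters, out of 49163 deposited. Wild-type C57BL/6J mice, 7 weeks old, were given bleomycin, whose injury to the lung ends in scarring, or PBS through the trachea, and from 5 days later NVP-BHG712, an inhibitor of the receptor tyrosine kinase EphB4, or its vehicle, daily for 5 days. Lungs were taken 14 days after instillation. The 4 groups of 3 mice, with 1 library per mouse, are PBS_vehicle and PBS_NVP, which had no bleomycin, and Bleo_vehicle and Bleo_NVP, which had. The mice carry no engineered allele, so the comparisons concern a drug given to the whole animal and not a change made in muscle. Nuclei came from pieces of frozen lung and were sorted on DNA stain alone, so muscle of airways and of vessels was sampled together.

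Smooth muscle encircles the bronchi and the blood vessels and sets their width by contracting. Contraction runs on smooth muscle myosin and actin and is triggered by calcium entry and by receptors for acetylcholine, endothelin and other signals, while the transcriptional coactivator myocardin, acting through serum response factor (SRF), switches on the contractile genes. SRF binds a short DNA motif called the CArG box. In injured lung the muscle layer can thicken, and its cells can trade contractile proteins for growth and matrix secretion.

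The nuclei were chosen by measured values. A nucleus was a member when it held at least 3 UMIs over at least 2 of Myh11 (smooth muscle myosin heavy chain), Cnn1 (calponin), Des (desmin), Actg2 (an enteric-type smooth muscle actin), Lmod1 (leiomodin, which nucleates actin filaments) and Synpo2 (an actin-bundling protein of the contractile apparatus), and more UMIs of these 6 genes than of 9 genes of neighbouring cell types (Adcy8, Trpc6, Agtr1a, Scube2, Adra1a, Pi16, Rtkn2, Kit and Ednrb). The median member had 8 UMIs of the 6 genes, the highest had 173, and 91 members had no UMI of the 9. At the edge of the rule, 29 members had exactly 3 UMIs and 29 nuclei just outside had 2 over 2 genes. Pooled, those just inside held Acta2 at 133 CPM (UMIs scaled to a total of 1000000) and those just outside at 24.4, while Cacna1c stood at 3197 and 3154. A further 180 nuclei had 3 or more UMIs of 1 gene alone, and 238 had no more UMIs of the 6 genes than of the 9. Near this edge, 1 UMI decides membership.

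The 12 libraries differed widely in yield. In the order of replicates 1 to 3, members numbered 17, 9 and 6 in PBS_vehicle and 41, 10 and 8 in PBS_NVP, with 4, 24 and 92 in Bleo_vehicle and 6, 11 and 7 in Bleo_NVP. Their summed UMIs ran from 6921 in Bleo_vehicle 1 to 447331 in Bleo_vehicle 3, so 1 UMI was worth from 144 down to 2.24 CPM. The Bleo_vehicle libraries also stood apart from all the others in mitochondrial UMIs, as given below, and were made in batches (numbered 6 and 7 in the labels) that held no other group. The run or batch and the bleomycin groups cannot be told apart. Of the barcodes, 324 occurred in more than 1 library, 1 of them a member, and 6 of 235 members were called doublets.

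Smooth muscle genes that the rule did not use were also high in the members. Acta2, the alpha smooth muscle actin, stood at 795 CPM in members and at 4.23 in all other nuclei, and 52.3% of members had a UMI of it against 0.604% of alveolar type I nuclei, which should lack it. Myocd, which encodes myocardin, stood at 844 against 4.03. Both were higher in members than in the other nuclei in 12 of 12 libraries. The plot of levels shows the pooled values of the leading genes, which were taken only if higher in members in at least 10 of 12 libraries. Since members were selected on smooth muscle genes, these differences are a description and were not tested. Cardiomyocyte genes would mark heart muscle or the cardiac muscle sleeve of the pulmonary veins. Of a list of 8 such genes, Myh6, Myl7 and Nppa were at 0 in all members, and the others were seen. The whole list gave 80 UMIs in members, at 87.1 CPM against 31.3 in all other nuclei. In 3 members, all of Bleo_vehicle, it had at least as many UMIs as the 6 genes of the rule.

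**Figure D1:**
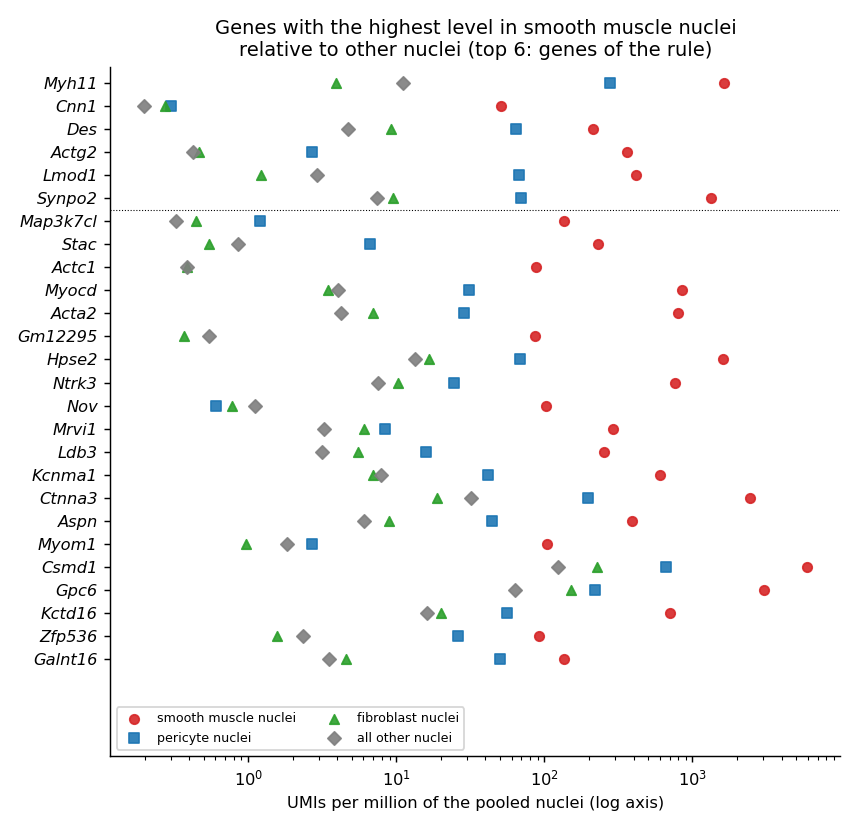
Level of 26 genes, in CPM of the pooled nuclei on a log axis, in smooth muscle nuclei, pericyte nuclei, fibroblast nuclei and all other nuclei. The 6 genes above the dotted line are those of the rule, and below it are the 20 genes with the highest ratio of members over other nuclei. These were taken among genes seen in at least 10% of members and higher in members in at least 10 of 12 libraries. Every gene is highest in smooth muscle nuclei, for example Acta2 at 795 against 28.6 in pericytes and 6.98 in fibroblasts. A gene with no UMI in a cell type has no point there.

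The genes with the highest ratio over other nuclei included parts of the contractile and filament-anchoring apparatus, namely Actc1 (an alpha actin best known from heart), Ldb3 (a Z-disc protein), Myom1 (myomesin) and Ctnna3 (the alpha-T-catenin of cell junctions), with Ctnna3 at 2446 CPM in members and 31.9 in others. Also among them were Kcnma1, the pore of the large-conductance calcium-activated potassium channel, at 606 against 7.83, and Stac, an adaptor of calcium channels, at 229 against 0.855. Mrvi1, a target of cyclic-GMP-dependent kinase on the calcium store, stood at 292 against 3.26. Cell-surface and matrix genes were Hpse2 (heparanase 2), Gpc6 (a glypican) and Aspn (asporin), and Ntrk3, the receptor for neurotrophin-3, stood at 764 against 7.55. These levels were pooled over libraries, of which Bleo_vehicle 3 gave 92 of the 235 nuclei.

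Because the CArG box is the textbook switch of contractile genes, it was searched on both strands of the 300 bases around the start sites (250 before, 50 after) that RefSeq lists for GRCm38.p6. A match stood in 2 of the 16 genes of the contractile list that had an entry (12.5%), against 488 of 27025 genes in the table (1.81%). By promoter, 1.63% of all 32851 held it. It was in none of the 4 rule genes among the 16, which says only that these letters are not in those windows. The matches are shown with the box in capitals, 5′ to 3′ on the strand of the gene. Myl9 encodes a regulatory light chain of smooth muscle myosin, and its window lies at chr2:156775293-156775322 on the plus strand, 161 bases before the start. The window of Ldb3, one of the leading genes of these nuclei, lies at chr14:34588697-34588726 on the minus strand, 35 and 109 bases before its 2 listed starts. A match describes the sequence and is not a measured binding site.
Myl9: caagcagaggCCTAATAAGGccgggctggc
Ldb3: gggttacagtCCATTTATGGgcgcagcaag

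Within the 235 nuclei, genes of airway muscle and of vascular muscle separated. Of the nuclei, 94 had more UMIs of an airway list (Hhip, Lgr6, Chrm2, Chrm3, Actc1, Nog, Foxf1, Gdnf) and are called airway-leaning, and 113 had more of a vascular list (Notch3, Rgs5, Pln, Gucy1a1, Heyl, Mcam, Ednra, Ntn4) and are called vascular-leaning. A further 9 had equal UMIs and 19 had none of either. Hhip, a membrane decoy for hedgehog ligands, and Notch3, a receptor that vascular muscle uses to mature, were rarely seen together. Hhip alone was seen in 72 nuclei, Notch3 alone in 83, both in 3 and neither in 77. Each of the 12 libraries held both kinds. The leaning is a cut through a range and not a cell type, since 49 nuclei lay within 1 UMI of it and 109 had UMIs of both lists. Median depth was close, 2986.5 UMIs in airway-leaning and 3225 in vascular-leaning nuclei.

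**Figure D2:**
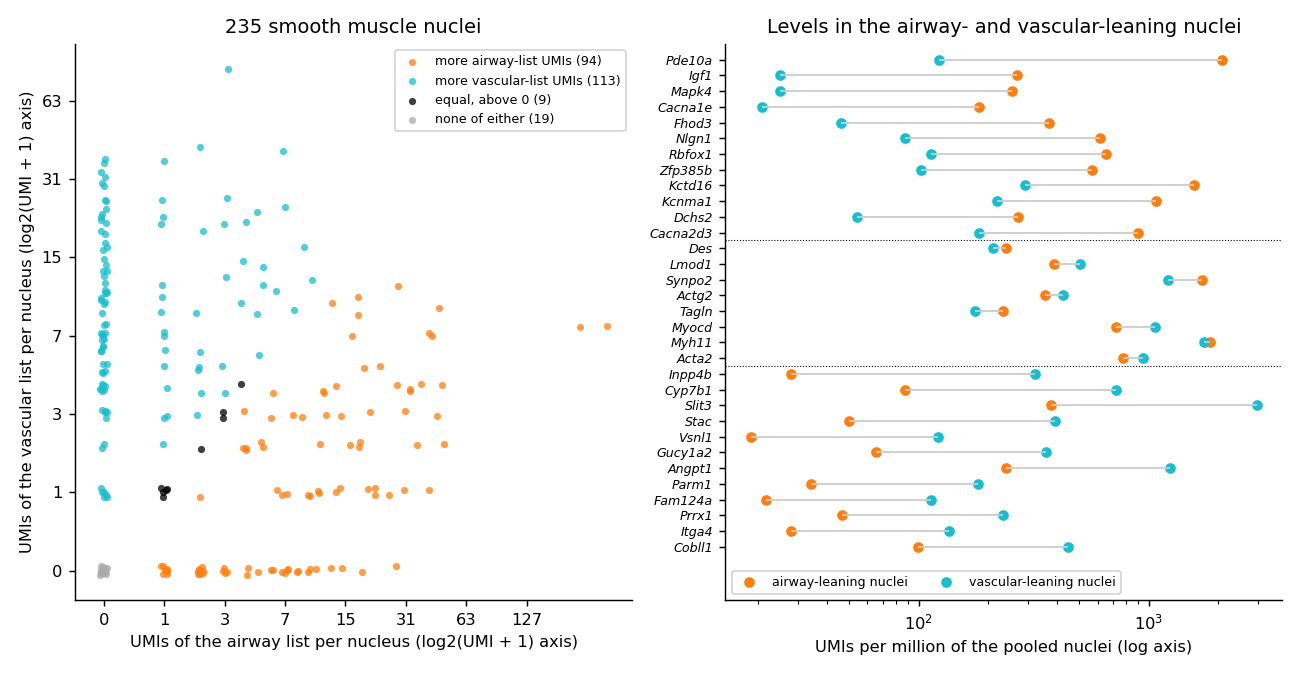
Left, UMIs of the airway list (horizontal) and of the vascular list (vertical) in each of the 235 smooth muscle nuclei, on log2(UMI + 1) axes with small random shifts so that points do not hide each other. Of the nuclei, 94 lean to the airway list, 113 to the vascular list, 9 are equal and 19 have neither. Right, CPM on a log axis in the airway-leaning and vascular-leaning nuclei for the 12 genes highest in the airway-leaning nuclei (top), 8 muscle genes (middle) and the 12 genes highest in the vascular-leaning nuclei (bottom). Among the middle genes, Acta2 stands at 772 and 944.

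Contractile genes were found in both kinds of nuclei. For Myh11 (1851 CPM in airway-leaning and 1737 in vascular-leaning nuclei), Actg2 and Synpo2 the rule itself asked for UMIs. Of genes outside the rule, Acta2 stood at 772 and 944 and Tagln, which encodes the actin-binding transgelin, at 233 and 175. Together the 14 genes of the contractile list that the rule did not use stood at 8168 and 9077. Myocd was at 722 and 1069, and higher in the vascular-leaning nuclei of 10 of the 12 libraries, and Cacna1c, the pore of the L-type calcium channel, was at 4182 and 7265 and higher there in 12 of 12. These values describe nuclei that were split by their own counts, so none was tested.

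Outside both lists, 12 genes with the highest ratio in airway-leaning nuclei were taken. Pde10a, the first of them and a phosphodiesterase of cAMP and cGMP, stood at 2082 CPM in airway-leaning and 123 in vascular-leaning nuclei and was higher in 10 of 12 libraries. Kcnma1 stood at 1080 against 219, and the calcium channel genes Cacna2d3 and Cacna1e at 899 against 184 and 184 against 20.9. Others were the formin Fhod3 (370 against 45.9), the growth factor Igf1 (268 against 25.1), the splicing regulator Rbfox1 (653 against 113) and the synaptic adhesion gene Nlgn1 (616 against 87.7). Pericytes and fibroblasts held little of most of these genes, with Fhod3 at 19.9 and 11.6 and Kcnma1 at 41.8 and 6.94.

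The 12 genes with the highest ratio in vascular-leaning nuclei were taken in the same way. Slit3, a secreted guidance cue, stood at 2963 CPM against 377 in airway-leaning nuclei and was higher in all 12 libraries. Angpt1, the ligand of the endothelial receptor Tie2, stood at 1245 against 240, and Gucy1a2, a subunit of the nitric oxide receptor guanylate cyclase, at 359 against 65.3. Stac stood at 390 against 49.8, the oxysterol enzyme Cyp7b1 at 718 against 87.1, the phosphatase Inpp4b at 319 against 28.0 and the homeobox gene Prrx1 at 234 against 46.7. Several of these were also found in pericytes, with Gucy1a2 at 953 there and Angpt1 at 1697, whereas Stac stood at 6.62 there. Fibroblasts held Slit3 at 1669, Angpt1 at 1832 and Inpp4b at 509. The whole pericyte marker list of 8 genes stood at 674 in vascular-leaning and 464 in airway-leaning nuclei, and the fibroblast list of 8 genes at 875 and 694. The part of pericyte and fibroblast RNA in this pattern was not tested.

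The first question of the design was whether the amount of muscle changed. Without correction for depth, smooth muscle nuclei made up 0.408% ± 0.0438 of nuclei in PBS_vehicle and 0.469% ± 0.0115 in PBS_NVP, with 0.410% ± 0.262 in Bleo_vehicle and 0.487% ± 0.0458 in Bleo_NVP (SD, n = 3 each). The 3 Bleo_vehicle libraries spread most, at 0.176%, 0.360% and 0.693%, and the lowest share was in Bleo_vehicle 1, whose nuclei were the shallowest with a median of 1079 UMIs. For thinning, nuclei under 1000 UMIs were left out, which kept from 1240 of 2274 nuclei in Bleo_vehicle 1 to 3717 of 3771 in PBS_vehicle 1. After each nucleus kept was thinned to 1000 UMIs, which left 116 members, the shares of these nuclei were 0.241% ± 0.0700, 0.301% ± 0.0689, 0.256% ± 0.158 and 0.266% ± 0.0569 (SD, n = 3 each). No share passed the test, with differences of 0.0152 percentage points for Bleo_vehicle minus PBS_vehicle, 0.0100 for Bleo_NVP minus Bleo_vehicle and 0.0596 for PBS_NVP minus PBS_vehicle. The two-sided exact permutation tests gave p = 0.8, 0.9 and 0.5, and p = 0.859 for the 6 bleomycin against the 6 PBS libraries, with an adjusted p of 0.9 for each of the 5 comparisons made. With 3 against 3 libraries an exact permutation test cannot go below p = 0.1. Without thinning all PBS_NVP libraries lay above all PBS_vehicle libraries, a difference of 0.0610 percentage points with p = 0.1 (exact permutation, adjusted p = 0.5), and PBS_NVP was higher in 3 of 3 pairs of replicate numbers (p = 0.25 by exact sign flips, the smallest that 3 pairs allow). After thinning to 1000 UMIs it was higher in 2 of 3 pairs (p = 0.5 by exact sign flips), and after thinning to 2000 the difference was -0.187 percentage points (exact permutation p = 0.1, adjusted p = 0.5). The labels do not pair these mice.

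**Figure D3:**
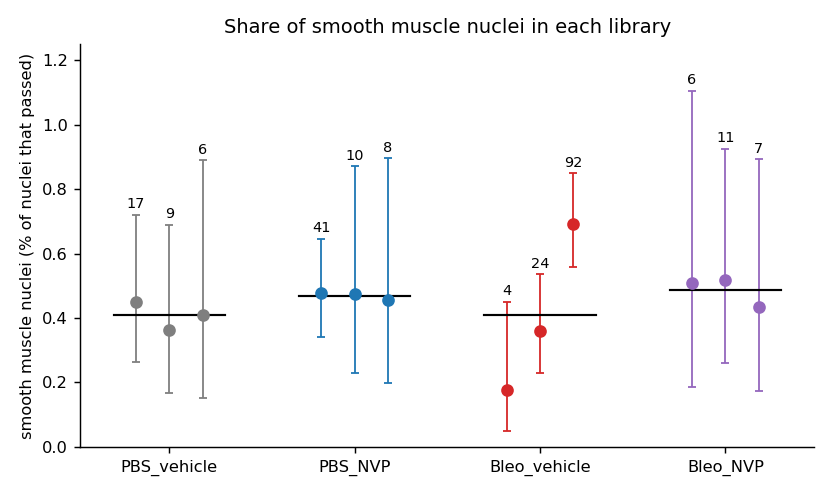
Smooth muscle nuclei as a percentage of the nuclei that passed the filters in each library, by group, without thinning. Points are libraries with their exact (Clopper-Pearson) 95% binomial interval, the number above each is its count of smooth muscle nuclei, and the black line is the group mean. The Bleo_vehicle libraries run from 0.176% to 0.693% and span both PBS groups, and the 3 PBS_NVP libraries, at 0.456% to 0.476%, lie above the 3 PBS_vehicle libraries, at 0.363% to 0.451%.

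Expression was compared between groups on the UMIs of all members summed per library, for the 600 genes with enough counts. Very few genes passed. In Bleo_vehicle against PBS_vehicle 7 genes were called at an adjusted p under 0.05 (1.17% of the genes tested), 6 higher and 1 lower, and 37 had an unadjusted p under 0.05. In Bleo_NVP against Bleo_vehicle 6 were called (1%), 1 higher and 5 lower. The interaction, which is the NVP-BHG712 effect under bleomycin minus that under PBS, called 6 (1%). No gene was called by edgeR in PBS_NVP against PBS_vehicle, in Bleo_NVP against PBS_NVP or in all bleomycin against all PBS libraries (0% each), where 13, 17 and 22 genes had an unadjusted p under 0.05 and DESeq2 called 0, 0 and 0. Of the 12 libraries 6 had fewer than 10 member nuclei.

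Hhip (ENSMUSG00000064325, GRCm38 chromosome 8, 79965851 to 80058006, minus strand) was the only called gene that the mitochondrial genome does not encode. It gave 160, 71 and 46 UMIs in PBS_vehicle and 284, 44 and 14 in PBS_NVP, with 1, 11 and 219 in Bleo_vehicle and 107, 47 and 20 in Bleo_NVP. Scaled to the UMIs of the 600 tested genes with TMM factors, these were 3438, 4009 and 5950 CPM in PBS_vehicle and 3572, 2907 and 1293 in PBS_NVP, with 316, 311 and 1010 in Bleo_vehicle and 11539, 4254 and 2495 in Bleo_NVP. The 3 Bleo_vehicle libraries lay below all 9 others.

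Against PBS_vehicle, Hhip was lower in Bleo_vehicle by a log2 fold change of -2.76 (SE 0.62, edgeR quasi-likelihood test, adjusted p = 0.0362). Against Bleo_vehicle it was higher in Bleo_NVP by 3.23 (SE 0.63, edgeR adjusted p = 0.0123), and the interaction was 3.96 (SE 0.84, edgeR adjusted p = 0.0224). On pooled counts the share of UMIs was 4.66 times higher in PBS_vehicle than in Bleo_vehicle (95% counting interval 3.90 to 5.57) and 7.50 times higher in Bleo_NVP (6.13 to 9.17), an interval that covers counting error only. The Bleo_NVP level rested partly on single nuclei, since 82 of the 107 UMIs of replicate 1 came from 1 nucleus.

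Pooled over libraries, the share of nuclei with Hhip and the UMIs in each were lowest in Bleo_vehicle, a comparison over nuclei that was not tested. Hhip was seen in 27 of 120 nuclei there (22.5%), in 14 of 32 in PBS_vehicle (43.8%), in 23 of 59 in PBS_NVP (39.0%) and in 11 of 24 in Bleo_NVP (45.8%). By library the share overlapped, at 25%, 16.7% and 23.9% in Bleo_vehicle beside 22.2% in PBS_vehicle 2 and 12.5% in PBS_NVP 3. A nucleus with Hhip held a median of 5 UMIs in Bleo_vehicle and of 16, 13 and 11 in PBS_vehicle, PBS_NVP and Bleo_NVP. Airway-leaning nuclei made up 35.0% of members in Bleo_vehicle, 37.5% in PBS_vehicle, 44.1% in PBS_NVP and 58.3% in Bleo_NVP, a share that moves with Hhip itself. Where Hhip was left out of the list, 39 of 120 nuclei of Bleo_vehicle leaned to it, a larger part than the 6 of 32 in PBS_vehicle and 10 of 59 in PBS_NVP. In Bleo_NVP 9 of 24 did. Of these nuclei, 17 of 39 had Hhip in Bleo_vehicle, against 5 of 6, 7 of 10 and 5 of 9 in PBS_vehicle, PBS_NVP and Bleo_NVP. Whether a smaller airway part or less Hhip per airway nucleus lay behind its lower level was not tested, and the nuclei are few.

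The Hhip call was fragile, although its direction held in every alternative. It was kept in 11 of 23 alternatives for Bleo_vehicle against PBS_vehicle, where the adjusted p ran from 0.00111 to 0.998, and in 15 of 23 for Bleo_NVP against Bleo_vehicle, where it ran from 0.000172 to 0.720. The interaction was kept in 11 of 22, with an adjusted p from 0.000692 to 0.992, and was lost without any 1 of 6 of the 12 libraries. Leaving out the mitochondrial genes, which share the adjustment, gave log2 -2.77 with an adjusted p = 0.287 and 3.25 with an adjusted p = 0.0720 by edgeR. Among libraries, the first call was lost without PBS_vehicle 2 (adjusted p = 0.0862) or 3 (0.137), PBS_NVP 2 (0.0707), Bleo_vehicle 1 (0.196) or 2 (0.236) or Bleo_NVP 2 (0.0628). The second was lost by edgeR without Bleo_vehicle 1 (adjusted p = 0.0740) or 2 (0.0879) or Bleo_NVP 1 (0.130), whose removal brought the log2 fold change to 2.33.

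In fibroblasts of the same libraries Hhip stood at 81.4 CPM in PBS_vehicle and 78.9 in Bleo_vehicle. These are CPM over all UMIs without TMM scaling, on which muscle stood at 2411 and 263. A model over both cell types, with the library as a block, gave a difference between the bleomycin effects of log2 -2.93 (edgeR adjusted p = 0.0123). The corresponding difference for Bleo_NVP against Bleo_vehicle was 2.28 and did not pass (edgeR adjusted p = 0.147). Against pericytes neither difference passed, with log2 0.0621 for Bleo_vehicle against PBS_vehicle (edgeR unadjusted p = 0.969). For Bleo_NVP against Bleo_vehicle it was 0.582 (edgeR unadjusted p = 0.780). Pericytes held Hhip at 442, 61.1 and 4553 CPM in PBS_vehicle and at most 103 in Bleo_vehicle. The value of 4553 came from 6 nuclei. With so few pericytes, the absent call does not show that they and muscle responded alike.

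**Figure D4:**
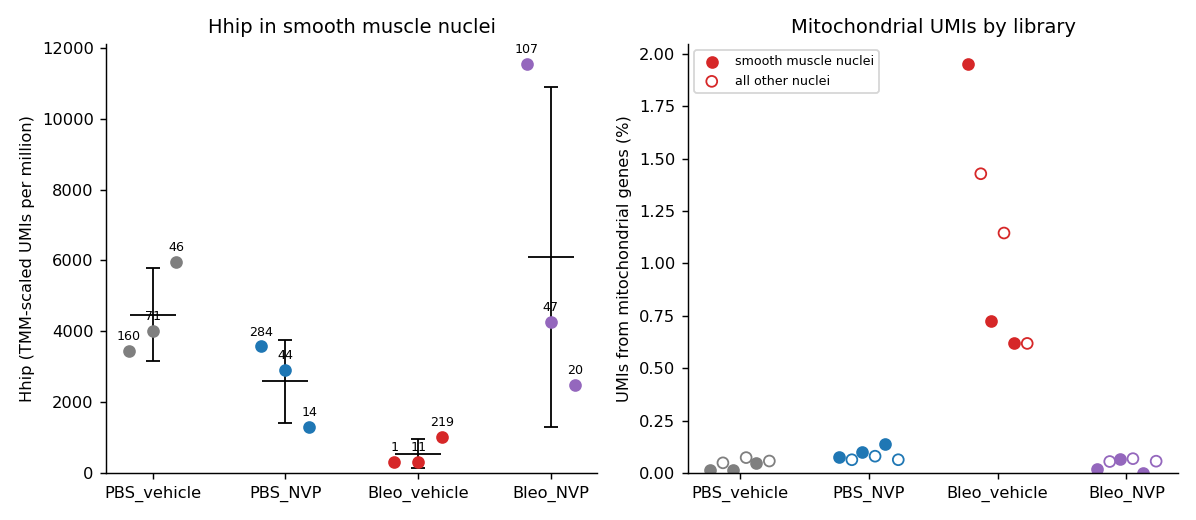
Left, Hhip in the summed smooth muscle nuclei of each library, in TMM-scaled CPM of the tested genes, with the raw UMIs written above each point and the group mean ± SD in black (n = 3). The Bleo_vehicle libraries lie at 316, 311 and 1010, below all others. Right, percentage of UMIs from mitochondrial genes in smooth muscle nuclei (filled) and in all other nuclei (open) of each library. Only the Bleo_vehicle libraries exceed 0.5%, in both kinds of nuclei.

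The other called genes were mitochondrial. mt-Co1, mt-Co2 and mt-Co3 (subunits of cytochrome c oxidase), mt-Atp6 (of ATP synthase), mt-Cytb (of complex III) and mt-Nd4 (of complex I) were higher in Bleo_vehicle than in PBS_vehicle. The UMIs of mt-Co1 were 4, 1 and 1 in PBS_vehicle and 19, 1 and 4 in PBS_NVP, with 30, 99 and 514 in Bleo_vehicle and 0, 2 and 0 in Bleo_NVP, so that pooled it was 27.6 times higher in Bleo_vehicle than in PBS_vehicle (95% counting interval 12.6 to 75.5). mt-Nd4 had no UMI in PBS_vehicle and 234 in Bleo_vehicle, which is at least 20.1-fold higher against a floor of 3 UMIs over the group. All except mt-Nd4 were called lower in Bleo_NVP than in Bleo_vehicle and in the interaction.

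The excess was not particular to muscle nuclei. Mitochondrial UMIs made up 1.95%, 0.725% and 0.619% of the UMIs of members in the 3 Bleo_vehicle libraries and 1.43%, 1.15% and 0.618% in all their other nuclei. In the other 9 libraries they made up at most 0.136% in members and at most 0.0799% in other nuclei. In the models with fibroblasts or pericytes no mitochondrial gene was called as different between the cell types. With only the nuclei that had no fewer than 500 UMIs, of which no more than 1% were mitochondrial, no gene was called by edgeR in any of the 6 comparisons, with Hhip at log2 -2.53 (adjusted p = 0.255) and 2.98 (adjusted p = 0.239). That limit left out all 4 members of Bleo_vehicle 1, 6 and 30 members of Bleo_vehicle 2 and 3, and 1 of PBS_NVP 3. Bleo_vehicle thus rested on its replicates 2 and 3, and both Hhip calls were also lost without Bleo_vehicle 1 alone.

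RNA of other cell types also differed in level between the groups. The club cell list of 4 genes, led by the secretoglobin Scgb1a1, stood at 970 CPM in Bleo_vehicle members, 200 in PBS_vehicle, 349 in PBS_NVP and 56.9 in Bleo_NVP. In the same order the alveolar type II list stood at 1246, 118, 242 and 190 and the endothelial list at 964, 126, 659 and 645. Of 145 macrophage UMIs over the list of 7 genes, 137 were in Bleo_vehicle, and all 7 genes were at 0 in Bleo_NVP. Only 167 of 235 members had more UMIs of the rule's 6 genes than of any list of another cell type. In Bleo_vehicle, 24 of 120 members held at least as many alveolar type II UMIs, and 20 at least as many fibroblast UMIs. Scgb1a1 was seen in 60.4% of members and 58.7% of all other nuclei, so a UMI of it did not set a cell type apart. Their part in any result was not tested.

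No contractile gene outside the rule passed in any comparison of groups. Of the 20 genes of the contractile list 13 could be tested. Of these, 4 (Myh11, Lmod1, Synpo2 and Actg2) are genes of the rule, by which members were chosen in every group, and their values are a description only. Of the other 9, edgeR called 0, with 0, 2 and 0 at an unadjusted p under 0.05 in Bleo_vehicle against PBS_vehicle, Bleo_NVP against Bleo_vehicle and PBS_NVP against PBS_vehicle. The 2 were Cald1, which encodes caldesmon, at log2 -1.04 (SE 0.38, edgeR adjusted p = 0.334) and Pdlim3, a filament-anchoring protein, at 1.71 (SE 0.75, edgeR adjusted p = 0.508). DESeq2 called 12, 12 and 0 genes of the 600 in these comparisons. The median log2 fold changes of the 9 were 0.02, 0.29 and 0.05, beside -0.04, 0.04 and 0.02 over all genes tested. Acta2 (ENSMUSG00000035783, GRCm38 chromosome 19, 34241090 to 34255590, minus strand) stood at 1354, 1129 and 4786 TMM-scaled CPM in PBS_vehicle and 2841, 2766 and 1577 in Bleo_vehicle, and the groups overlapped. Its log2 fold change was 0.02 (SE 0.79, edgeR adjusted p = 0.995), and it was -0.52 (SE 0.81, edgeR adjusted p = 0.945) for Bleo_NVP against Bleo_vehicle.

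**Figure D5:**
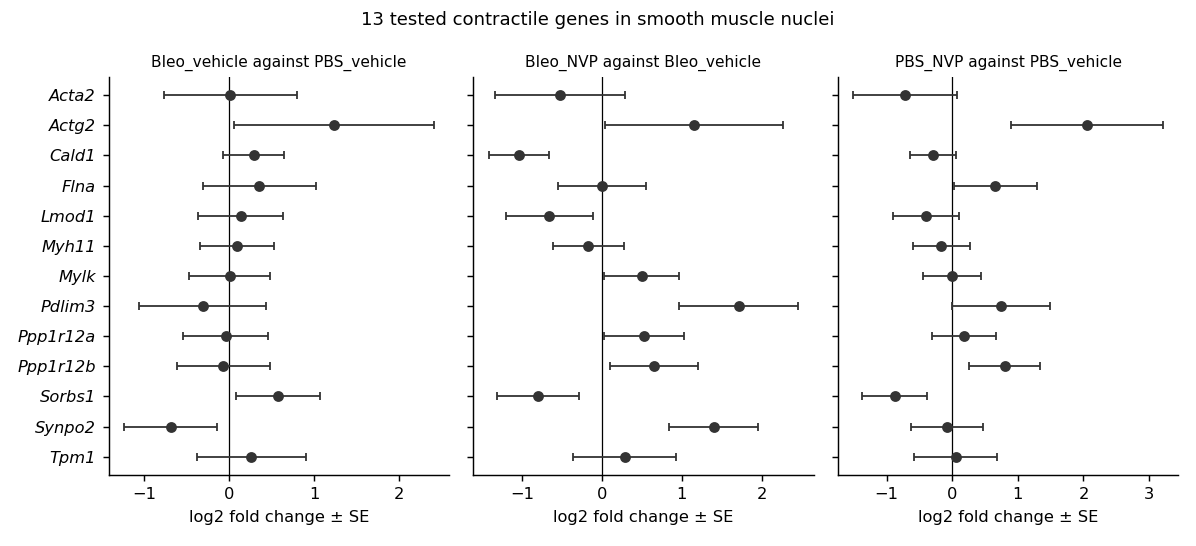
Log2 fold change ± SE of the 13 tested contractile genes in the summed smooth muscle nuclei for 3 comparisons, each against the second group named, with 3 libraries a group. None of the 9 genes outside the rule passed an adjusted p of 0.05, and Myh11, Lmod1, Synpo2 and Actg2 are genes of the rule, shown as a description. Actg2 has the widest errors of the panel, with 1.23 ± 1.18 in the left panel.

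For control of the contractile genes, of 10 measured genes of the SRF and myocardin list 4 could be tested and 0 were called. Myocd had log2 fold changes of 0.13 (SE 0.46) for Bleo_vehicle against PBS_vehicle and 0.45 (SE 0.47) for Bleo_NVP against Bleo_vehicle, and neither passed. Of 19 channel and calcium-store genes 11 were tested with 0 called, among them the L-type calcium channel gene Cacna1c at -0.11 (SE 0.35) and 0.21 (SE 0.35) and Kcnma1 at -0.90 (SE 0.61) and 1.17 (SE 0.61).

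Of 23 receptor and second-messenger genes 8 were tested with 0 called. The muscarinic receptor genes Chrm2 and Chrm3, which carry the acetylcholine signal for bronchial contraction, had values that rested on few nuclei. In Bleo_NVP 1, 180 of 182 Chrm2 UMIs and 48 of 48 Chrm3 UMIs were in a single nucleus. Chrm3 gave 19 UMIs in 4 nuclei of PBS_vehicle and 1 UMI in PBS_NVP. Neither gene passed in a comparison of groups within muscle, whereas Chrm2 was called in the comparison with fibroblasts described further on.

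Genes of growth, matrix and injury were likewise below the threshold. Of 34 matrix genes 11 were tested, 2 of 15 genes of the synthetic phenotype, 7 of 23 measured genes of TGF-beta and BMP signalling, and 1 each of the Notch and circadian clock lists, and 0 were called in every comparison. Eln, the elastin gene, had log2 fold changes of -0.11 (SE 0.61) for Bleo_vehicle against PBS_vehicle and -0.71 (SE 0.64) for Bleo_NVP against Bleo_vehicle, and neither passed. The laminin chains Lama2 and Lama4 gave -1.05 (SE 0.44) and -0.99 (SE 0.42), and Bmp5, a BMP ligand, -1.76 (SE 0.67) for Bleo_vehicle against PBS_vehicle, each with an unadjusted p under 0.05 and an edgeR adjusted p from 0.563 to 0.720. None of the 14 p53 target genes or 12 immediate-early genes had enough UMIs to be tested.

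In the comparisons without a called gene, the smallest p-values without overlap between the groups are given as values that did not pass. For PBS_NVP against PBS_vehicle these were mt-Atp6 (log2 3.81), mt-Co2 (3.22), mt-Nd4 (5.21), Chrm3 (-4.85) and Fbxo11 (1.22), each with an edgeR adjusted p of 0.998. For Bleo_NVP against PBS_NVP they were Chrm2 (log2 5.46, edgeR adjusted p = 0.602), Dock10 (-3.64), Csnk1a1 (1.24), Sema5a (-1.25) and mt-Atp6 (-2.72). Dock10, an activator of small GTPases, gave 128, 8 and 4 UMIs in PBS_NVP and 0, 1 and 1 in Bleo_NVP. Over all bleomycin against all PBS libraries only Mllt10, a chromatin regulator, had a p under 0.05 without overlap, at log2 0.77 (SE 0.34, edgeR adjusted p = 0.997). Its lowest bleomycin library stood at 1186 TMM-scaled CPM and its highest PBS library at 1182.

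The target of the drug was barely sampled in muscle. Ephb4 gave 23 UMIs in 17 of the 235 nuclei, which is 25.0 CPM beside 35.5 in all other nuclei. The UMIs by library were 3, 0 and 1 in PBS_vehicle and 7, 1 and 0 in PBS_NVP, with 2, 4 and 5 in Bleo_vehicle and 0 in each Bleo_NVP library, where 3 UMIs over the group would be 56.9 CPM. Efnb2, the gene of the ephrin-B2 ligand, gave 96 UMIs at 104 CPM. None of the 8 genes of EphB receptors and ephrin-B ligands could be tested, so a change in them was not detectable at this depth.

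Compared with the neighbouring cell types, few genes passed a test for a different response in muscle. Against pericytes 0 of 1653 genes had a different response by edgeR in Bleo_vehicle against PBS_vehicle, in Bleo_NVP against Bleo_vehicle or in bleomycin against PBS (0% each), with 50, 113 and 48 at an unadjusted p under 0.05. Pericytes numbered only 6 in PBS_vehicle 3, 2 in PBS_NVP 3 and 5 and 9 in Bleo_NVP 1 and 3, and no minimum was applied. An absent call at this depth does not show that muscle and pericytes responded alike. DESeq2 was not run on these models, and leaving out 1 of 9 of the 12 libraries gave 1 to 6 called genes for Bleo_NVP against Bleo_vehicle. Against fibroblasts, 16 of 8951 genes differed for Bleo_vehicle against PBS_vehicle (0.179%), 1 with a higher response in muscle and 15 with a lower one. For Bleo_NVP against Bleo_vehicle 36 differed (0.402%), 22 higher and 14 lower, and for all bleomycin against all PBS libraries 3 differed (0.0335%), all lower. These counts ran from 5 to 28, 9 to 43 and 2 to 7 with 1 library left out.

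Many of the genes with a lower response in the first comparison and a higher one in the second had more UMIs in airway-leaning nuclei. Chrm2 (called in the first and second of these comparisons) and Hhip (in the first) belong to the airway list, so that their place there was fixed by the split. Outside both lists, 10 of the 13 genes with a lower bleomycin response in muscle than in fibroblasts had more UMIs in airway-leaning than in vascular-leaning nuclei, beside 19.2% of the 8939 tested genes outside both lists. These are raw UMIs, of which airway-leaning nuclei held 321380 in total and vascular-leaning nuclei 478902. Bleo_vehicle gave 524728 of the member UMIs, with 42 airway-leaning and 62 vascular-leaning nuclei. A gene that is low there therefore tends to lose more vascular-leaning UMIs, whatever its place in muscle. The 8939 genes passed a count filter over both cell types together. The tally is thus a description and was not tested. Chrm2 differed by log2 -3.37 (edgeR adjusted p = 0.0236) and, for Bleo_NVP against Bleo_vehicle, by 5.17 (edgeR adjusted p = 1.22e-05), the latter with 180 of its 195 Bleo_NVP UMIs in 1 nucleus, and in both the groups overlapped. Cdh4, a cadherin, stood at 1371 ± 75.5 CPM in muscle of PBS_vehicle and 175 ± 255 in Bleo_vehicle (SD, n = 3 each, log2 difference -3.77, edgeR adjusted p = 0.000956). Cacna1e stood at 251 ± 142 and 12.2 ± 11.3, with 2.57 and 5.11 in fibroblasts (log2 difference -4.49, edgeR adjusted p = 0.000477). Rgs6, a regulator of G-protein signalling, stood at 2729 ± 611 and 958 ± 291 (log2 difference -3.19, edgeR adjusted p = 0.00175). It had 701 UMIs in airway-leaning and 876 in vascular-leaning nuclei, which relative to these totals is more in the airway-leaning ones. Dchs2, P2ry14, Hhip and Lmcd1, the last with more UMIs in vascular-leaning nuclei (116 against 47), were the others without overlap between the groups. Each gene rests on few UMIs in Bleo_vehicle 1, where 1 UMI is 144 CPM.

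For Bleo_NVP against Bleo_vehicle, 15 of the 21 genes outside both lists with a higher response in muscle had more raw UMIs in airway-leaning nuclei, beside the same 19.2%, and 0 of the 14 with a lower one. The limits given above hold for this tally too. One of the 15, Cacna1e, stood at 12.2 ± 11.3 CPM in Bleo_vehicle and 203 ± 92.4 in Bleo_NVP (SD, n = 3 each), on 11 UMIs in each group. Nrxn3, Fhod3, Sema3a and Pcdh17 were further genes of this kind without overlap, on only 24, 18, 16 and 12 UMIs in Bleo_NVP. In the Bleo_NVP libraries 1 UMI is worth 50.1 to 64.3 CPM, so these levels lie near the floor. Rgs6, at 958 ± 291 and 2638 ± 491, and Adgrl2, at 562 ± 19.1 and 984 ± 196, also did not overlap but had more raw UMIs in vascular-leaning nuclei. Relative to the total UMIs of each kind of nuclei, Rgs6 was higher in the airway-leaning ones and Adgrl2 (198 and 302 UMIs) was about level. Of those lower, Fn1, which encodes fibronectin, had 161 UMIs in 45 Bleo_vehicle nuclei and 0 in Bleo_NVP, at least 5.39-fold lower against a floor of 3 UMIs over the group, and Mid1 had 88 and 0. Inpp4b, a vascular-leaning gene, stood at 297 ± 125 and 59.5 ± 64.8 in muscle, on 106 and 3 UMIs, and at 185 and 1220 in fibroblasts. Some of these differences thus lie in the fibroblasts. These comparisons share the Bleo_vehicle libraries, whose excess of mitochondrial, club cell, alveolar type II and macrophage RNA was given above, and its part in them was not tested.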

How the data were processed

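The authors aligned reads to mm10 (GRCm38) with Cell Ranger (7.0 in the submitters' processing notes, 7.2.0 in the file headers) and deposited, for each library, raw UMI counts per gene and nucleus. The study's methods name DecontX for removing ambient RNA. The deposited counts are whole numbers under a Cell Ranger header, and no such correction was made on them here. Nuclei with 200 to 6000 genes and at most 5% mitochondrial UMIs were kept, and doublets were called with scrublet at 0.8% per 1000 nuclei. For each library the UMIs of its members were added up, and these 12 totals entered one fit in edgeR 4.0.16 (filterByExpr, TMM, robust two-sided quasi-likelihood test, Benjamini-Hochberg adjustment over all genes tested), with DESeq2 1.42.0 as an alternative. TMM-scaled levels are CPM over the 600 tested genes, and 44.3% to 53.6% of member UMIs lay outside these. Pooled levels and those in the comparisons with pericytes or fibroblasts are CPM over all UMIs. A planned minimum of 10 nuclei a library left 1, 2, 2 and 1 libraries in the groups, so all libraries were used. In the models with pericytes or fibroblasts, genes of the rule and of those marker lists were left out of the counts. Shares were compared by exact permutation after thinning to 1000 UMIs, with nuclei under 1000 UMIs left out. Members, lists and tests were chosen with earlier results of these data known. Genes were named when called, at 20 CPM or more and without overlap between the groups (up to 10 each way), and from fixed lists. Genes of the leaning comparison, a rule set after the data were seen, needed 50 UMIs, 20 nuclei and 8 libraries. Replicate numbers are taken as paired for PBS_vehicle and PBS_NVP (correlations of their deviations 0.467, 0.112 and 0.225) and for no other groups. Intervals cover counting error only. Coordinates are from GENCODE M21.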

Additional observations from a re-analysis of the deposited data

Results flagged for a closer look

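Some effects differed between groups by a test of the difference itself. The NVP-BHG712 effect under bleomycin minus that under PBS was 3.96 (log2) for Hhip, -7.32 for mt-Co1, -8.83 for mt-Co2, -9.13 for mt-Atp6, -6.06 for mt-Co3 and -6.73 for mt-Cytb (edgeR quasi-likelihood interaction, adjusted p under 0.05 for each). The Hhip call was kept in 11 of 22 alternatives, and was lost without PBS_vehicle 2 or 3, PBS_NVP 2, Bleo_vehicle 1 or 2, or Bleo_NVP 1. The mitochondrial values follow the higher mitochondrial share of all nuclei in the Bleo_vehicle libraries, given in the report, and the run or batch and the bleomycin groups cannot be told apart. Between smooth muscle and fibroblast nuclei the response differed in 16 genes for Bleo_vehicle against PBS_vehicle, in 36 for Bleo_NVP against Bleo_vehicle and in 3 for bleomycin against PBS.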

How the results depend on the processing

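A minimum of 10 or 20 member nuclei a library could not be run, so each alternative was run without one, a choice made after seeing the data, as was leaving out the mitochondrial genes. Of the counts of called genes in muscle, 122 of 137 alternatives stayed within 1.5 times the reported count. These include PBS_NVP against PBS_vehicle, Bleo_NVP against PBS_NVP and bleomycin against PBS. Each of those had 0 calls and stayed at 0 with any 1 library left out, so the pooled figure says less about the comparisons with calls. Hhip and the mitochondrial genes made 19 calls over the comparisons. Of 405 alternatives to these calls none reversed the direction and 63 lost the call. For Bleo_vehicle against PBS_vehicle (7 called), DESeq2 called 12, the compared libraries alone 11, and 0 remained without the mitochondrial genes or under a limit of 500 or more UMIs a nucleus with 1% or less of them mitochondrial. The latter limit left no member of Bleo_vehicle 1. For Bleo_NVP against Bleo_vehicle (6 called) DESeq2 gave 12, no filter on low counts 15, the stricter rule of 5 UMIs over 3 genes 1, and both of the mitochondrial limits 0. The interaction (6 called) gave 21 without the filter, 2 under the stricter rule and 0 under both mitochondrial limits. Without the filter, Bleo_NVP against PBS_NVP gave 4, bleomycin against PBS 1 and the pericyte difference for Bleo_NVP against Bleo_vehicle 1. RLE scaling gave 35, 71 and 5 genes for the fibroblast differences in place of 16, 36 and 3. Except for the mitochondrial limits and fewer genes or nuclei, which are the alternatives' own construction, the cause was not tested.

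With 1 library left out the counts ran from 5 to 9, 4 to 9, 0 to 0, 0 to 0, 4 to 8 and 0 to 0 for Bleo_vehicle against PBS_vehicle, Bleo_NVP against Bleo_vehicle, PBS_NVP against PBS_vehicle, Bleo_NVP against PBS_NVP, the interaction and bleomycin against PBS. The pericyte differences ran from 0 to 0, 0 to 6 (0 without PBS_vehicle 1, PBS_NVP 3 or Bleo_vehicle 2) and 0 to 1 (1 without PBS_NVP 1, PBS_NVP 2 or Bleo_NVP 3). The fibroblast differences ran from 5 (without PBS_vehicle 2) to 28 (without PBS_vehicle 1), from 9 (without Bleo_NVP 1) to 43, with 10, 17 and 23 without Bleo_vehicle 2, Bleo_NVP 2 and Bleo_NVP 3, and from 2 to 7 (without Bleo_NVP 2), with 5 without Bleo_vehicle 3. mt-Nd4 lost its call without Bleo_vehicle 1, and mt-Co3 lost its call against Bleo_vehicle without Bleo_NVP 1 or 3 and in the interaction also without PBS_vehicle 1 or 2.

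The replicate number as a block gave 8 genes for Bleo_vehicle against PBS_vehicle, 8 for Bleo_NVP against Bleo_vehicle, 8 for the interaction and 0 for the other 3 comparisons. With the block 6 genes were shared in each of the first 3, Cmss1 and Scgb1a1 were added, and mt-Nd4 was lost in the first. Run number as a block within the PBS libraries gave 0. Pairing by replicate number, added after seeing the data, left the share of PBS_NVP minus PBS_vehicle at 0.0596.

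No share passed under any alternative, and small differences changed sign. In percentage points, Bleo_vehicle minus PBS_vehicle was -0.0296 at 500 UMIs, -0.0899 at 2000 and -0.0301 without nuclei rich in another marker list. Bleo_NVP minus Bleo_vehicle was -0.0721 with at least 2 UMIs over 2 genes and -0.00423 without doublets. PBS_NVP minus PBS_vehicle was -0.187 at 2000 UMIs. Bleo_NVP minus PBS_NVP was 0.0183 without thinning and 0.150 at 2000. Bleomycin minus PBS was 0.00998 without thinning, 0.0302 at 2000 and 0.0218 with at least 2 UMIs. Leaving out 1 library gave -0.0497 to 0.103, -0.0778 to 0.0750, 0.0198 to 0.0891, -0.0670 to 0.00349 and -0.0345 to 0.0266 for Bleo_vehicle minus PBS_vehicle, Bleo_NVP minus Bleo_vehicle, PBS_NVP minus PBS_vehicle, Bleo_NVP minus PBS_NVP and bleomycin minus PBS. The sign turned without PBS_vehicle 1, Bleo_vehicle 2 or Bleo_vehicle 3 in the first, Bleo_vehicle 1 or Bleo_NVP 3 in the second, PBS_NVP 3 in the fourth and PBS_NVP 3 or Bleo_vehicle 1 in the last.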
